A study of Homo sapiens with 6 samples.

Results

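The genes described here carry the vitamin pantothenate to coenzyme A, together with a pair of genes of valine breakdown whose pathway borders β-alanine metabolism. The 9 members, PANK1, PANK2, PANK3, PANK4, PPCS, PPCDC, COASY, HIBCH and HIBADH, were chosen by symbol, and all 9 were among the 17081 genes of the count table. All 9 also passed the filter on low counts, as did 13382 genes in all. The samples were tumour pieces grown from DMS114 cells, a human small cell lung cancer line kept in culture, in a model in which the tumour invades the sciatic nerve. Pieces from the distal invaded region (3 libraries) were set against pieces from the proximal invaded region (3 libraries). No treatment, genotype, host age or time is given in the labels, and both groups share the same cell line. The series is titled after STMN2 and β-alanine-controlled metabolism. The comparison asks here whether genes of coenzyme A synthesis, and of valine breakdown bordering β-alanine metabolism, differ in RNA level along the nerve.

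Coenzyme A carries acyl groups through the citric acid cycle, fatty acid synthesis and fatty acid oxidation. Human cells make it from pantothenate, cysteine and ATP. Pantothenate kinase takes the first step, which is inhibited by the acyl-coenzyme A end products and usually sets the rate. Pantothenate itself contains a β-alanine unit, but human cells take the vitamin up ready made. β-Alanine is broken down to malonate semialdehyde, which ALDH6A1 handles. The same enzyme takes a different semialdehyde in the valine pathway, where HIBCH and HIBADH stand just before it.

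PANK1, PANK2 and PANK3 each hold a microRNA gene of the family of miR-103 and miR-107 within an intron, on the strand of the host gene. The sequences are shown because the hosted microRNAs set these loci apart from the other 6 members. MIR107 lies in PANK1 at chr10:89592756-89592778, MIR103A1 in PANK3 at chr5:168560904-168560926 and MIR103A2 in PANK2 at chr20:3917541-3917563, where the positions are those of the mature 3′ arm in RefSeq, build GRCh38.p14. Capitals mark the seed, bases 2 to 8.
hsa-miR-103a-3p: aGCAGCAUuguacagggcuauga
hsa-miR-107: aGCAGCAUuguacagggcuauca
Both have the seed GCAGCAU, and the same mature sequence, hsa-miR-103a-3p, is given for the PANK2 and PANK3 loci. Over 23 bases they differ at 1, G22C, with miR-103a-3p first and positions counted from 1 at the 5′ end. The counts described below are of reads assigned to the host genes, and the microRNAs were not analysed here.

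Library totals ran from 16171106 to 24217043 counts in distal and from 21865148 to 26116191 counts in proximal tumour. Counts are given as CPM, counts per 1000000 after scaling by TMM (trimmed mean of M values). Whether the libraries stem from different animals is not in the labels, so the p-values rest on a between-sample spread that may be technical. Of markers of the labelled tumour type, SYP (synaptophysin) was read at 56.9 to 63.9 CPM and YAP1 at 167 to 187 CPM over the 6 libraries. Skeletal muscle markers (18 of 18 in the table) summed to 42.1, 67.0 and 2595 CPM in distal 1, 2 and 3, against 44.6, 73.5 and 399.7 CPM in proximal 1, 2 and 3, and 13 of the 13 tested had higher values in distal. Among them MYH1 had no read in distal 1, and MYH7 none in distal 1 and proximal 1. Schwann cell and myelin markers (9 of 10 in the table) summed to 76.3 to 124 CPM in distal and 63.5 to 158 CPM in proximal tumour, with 1 read of S100B and 4 of MAG in all 6 libraries together. The part of these cells in the results below was not tested, but each result is also given without distal 3 and proximal 3 where that turned its direction or moved its value by over 1.5 times.

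None of the members differed past the threshold between the regions. In the quasi-likelihood test of edgeR, Benjamini-Hochberg adjusted over 13382 genes, 0 of 9 members were called, beside 0% of all genes, and the adjusted p of each member was 0.9997. None of the 9 had an unadjusted p under 0.05, and DESeq2 and limma-voom also called 0 members. Log2 fold changes, distal minus proximal, ran from -0.17 in PANK1 to 0.09 in PPCS, with standard errors of 0.085 to 0.13. They were below 0 for 6 members and above 0 for 3, with a median of -0.09, while 48.4% of all genes tested were below 0, with a median of 0.0045. The 95% interval lay within 1.5-fold in either direction for all 9 members, as for 69.1% of all genes tested, and its outermost limits over the members were a distal level of 0.76 times (PANK1) and 1.30 times (PPCS) the proximal one. In pieces of whole tumour, fewer cells of a kind and less RNA per cell cannot be told apart.

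**Figure D1:**
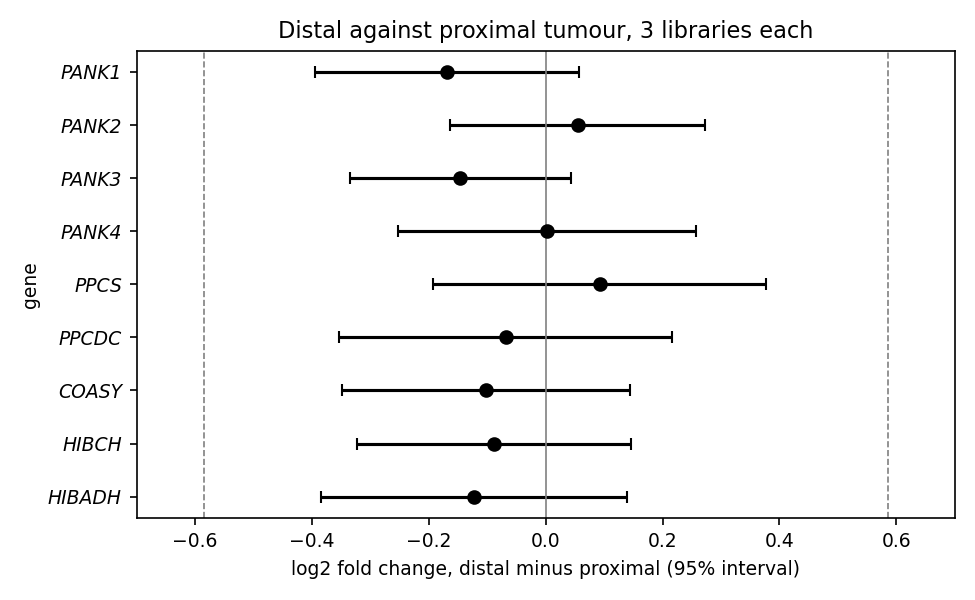
Log2 fold change of each member, distal minus proximal (horizontal axis, points), with its 95% interval from edgeR's quasi-likelihood test (bars), from 3 libraries per region. The solid line marks no difference and the dashed lines 1.5-fold in either direction. Every interval crosses 0 and lies between the dashed lines.

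Among the kinases, PANK3 had by far the most reads. PANK3 (chromosome 5, 168548495 to 168579368, minus strand) encodes a cytosolic pantothenate kinase. It was read at 423, 417 and 380.2 CPM in the distal libraries, against 428.5, 475 and 447 CPM in the proximal libraries. All 3 distal values lay below all 3 proximal ones, though distal 1 and proximal 1 were close. The means were 407 ± 23.3 CPM in distal and 450.3 ± 23.5 CPM in proximal tumour (SD, n = 3 each). That gave PANK3 a log2 fold change of -0.15 (SE 0.085, 95% interval -0.34 to 0.04), with an unadjusted p of 0.117 in edgeR's test over all genes. Without distal 3, its lowest library, the value was -0.10.

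PANK1 (chromosome 10, 89579495 to 89645242, minus strand), which gives rise to a long and a short kinase form, was also lower in each distal library than in any proximal one. It had 24.0, 25.6 and 26.1 CPM in distal tumour, against 26.8, 30.0 and 28.2 CPM in proximal tumour. The gap between the groups was small, since distal 3 and proximal 1 stood next to each other. Means were 25.2 ± 1.11 CPM in distal and 28.3 ± 1.61 CPM in proximal tumour (SD, n = 3 each). This came to a log2 fold change of -0.17 (SE 0.10, 95% interval -0.39 to 0.06) with an unadjusted p of 0.128 in edgeR's test. PANK1 and PANK3 were thus 2 of 9 members whose groups did not overlap, both lower in distal, where 6.28% of all genes tested did not overlap in either direction, 3.09% lay lower and 3.20% higher in distal. Their log2 fold changes kept their sign over all 15 alternatives, between -0.21 and -0.13 for PANK1 and between -0.19 and -0.099 for PANK3, and passed the test in none.

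PANK2 (chromosome 20, 3888781 to 3929887, plus strand) encodes the mitochondrial pantothenate kinase, whose loss in people causes a neurodegeneration with brain iron accumulation. It was read at 31.3, 32.9 and 36.3 CPM in distal, against 32.0, 33.1 and 31.7 CPM in proximal tumour. Distal 3 held the highest value and distal 1 the lowest, so the groups overlapped. The log2 fold change was 0.05 (SE 0.098), and it was -0.0059 without distal 3 and -0.019 without distal 3 and proximal 3.

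PANK4 (chromosome 1, 2508537 to 2526596, minus strand) resembles the kinases but lacks pantothenate kinase activity and carries a phosphatase domain. Its levels were 24.3, 28.8 and 29.6 CPM in distal and 26.7, 26.1 and 29.7 CPM in proximal tumour. The groups covered nearly the same range. Its means were 27.6 ± 2.84 CPM in distal and 27.5 ± 1.92 CPM in proximal tumour (SD, n = 3 each). Its log2 fold change of 0.0026 (SE 0.11) changed sign easily, at -0.051 without distal 3, -0.033 without distal 2, -0.023 without proximal 1 and -0.035 without proximal 2, and it was 0.0065 without distal 3 and proximal 3.

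**Figure D2:**
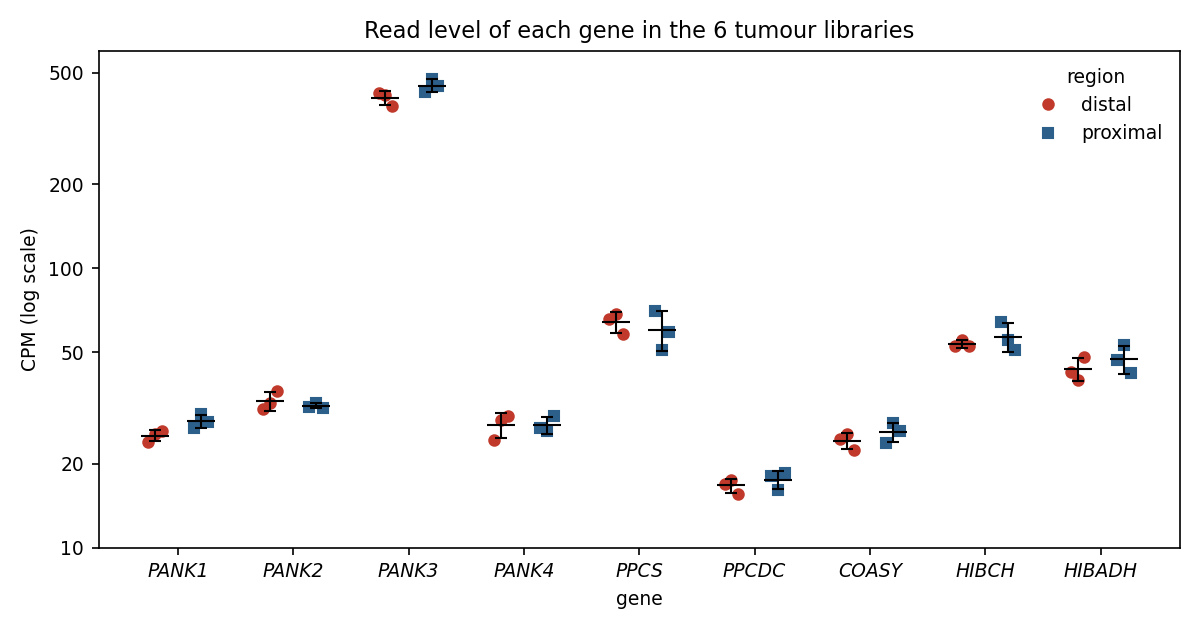
CPM of the 9 members in each library (log vertical axis), with distal libraries as circles and proximal libraries as squares, and the mean and SD of 3 libraries in black. PANK3 sits between 380.2 and 475 CPM, and the other members between 15.6 and 70.6 CPM.

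The next step joins cysteine to phosphopantothenate and is made by PPCS, phosphopantothenoylcysteine synthetase (chromosome 1, 42456341 to 42473417, plus strand). PPCS was read at 65.9, 68.8 and 58.1 CPM in distal, against 70.6, 50.9 and 59.4 CPM in proximal tumour. The proximal libraries held both the highest and the lowest value. Its log2 fold change was 0.09 (SE 0.13), with -0.017 without proximal 2, the lowest library, and 0.15 without distal 3 and proximal 3.

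PPCDC, the decarboxylase that turns this product into phosphopantetheine (chromosome 15, 75023590 to 75050726, plus strand), had the fewest reads of the 9, with 256 to 466 counts per library. Its levels were 17.0, 17.6 and 15.6 CPM in distal and 18.0, 16.1 and 18.5 CPM in proximal tumour. The groups overlapped, with distal 3 lowest and proximal 3 highest. On the log2 scale PPCDC differed by -0.068 (SE 0.13), a value that ran from -0.13 without proximal 2 to -0.023 without distal 3 over single libraries left out, with -0.11 without distal 2, and was 0.016 without distal 3 and proximal 3.

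COASY (chromosome 17, 42562148 to 42566277, plus strand) encodes coenzyme A synthase, a single protein that carries out the last steps of the pathway. Like PANK2, it is a gene of inherited brain iron accumulation. It had 24.4, 25.6 and 22.5 CPM in distal, against 23.8, 28.0 and 26.1 CPM in proximal tumour. Distal 1 and distal 2 lay inside the proximal range and distal 3 below it. Its log2 fold change was -0.10 (SE 0.11), -0.053 without distal 3, -0.047 without proximal 2, -0.17 without proximal 1 and -0.049 without distal 3 and proximal 3.

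On the valine side, HIBCH (chromosome 2, 190189735 to 190319826, minus strand) encodes the mitochondrial enzyme that frees 3-hydroxyisobutyrate from coenzyme A. It was read at 52.7, 55.4 and 52.6 CPM in distal and 64.2, 55.4 and 51.2 CPM in proximal tumour. Proximal 1 stood above the other 5 libraries. The log2 fold change was -0.088 (SE 0.11), and it was 0.0021 without proximal 1, -0.16 without proximal 3 and -0.15 without distal 3 and proximal 3.

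HIBADH, the dehydrogenase that oxidizes 3-hydroxyisobutyrate (chromosome 7, 27525442 to 27662883, minus strand), had 42.5, 40.0 and 48.2 CPM in distal, against 47.0, 53.1 and 42.2 CPM in proximal tumour. Distal 3 was the highest of its group and proximal 3 the lowest of its own. These are the libraries with the most muscle reads in each group, and the part of muscle in these values was not tested. The log2 fold change was -0.12 (SE 0.12), -0.034 without proximal 2, -0.067 without distal 2, -0.20 without distal 3 and -0.20 without proximal 3. Without distal 3 and proximal 3 it was -0.28, with an adjusted p of 0.9992 in edgeR's test and an unadjusted p of 0.0265, the only unadjusted p under 0.05 that any member reached over the 15 alternatives.

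Levels of different genes can be compared only per length, and exon lengths were taken from the GENCODE 29 basic set (GRCh38), which need not be the authors' annotation. PANK3 was highest, at 36.2 to 45.2 CPM per kb over the 6 libraries, and its mean of 40.8 CPM per kb lay at percentile 89.1 of the 13200 tested genes with a length. PPCS followed at 25.6 to 35.5 CPM per kb (percentile 85.2). HIBADH, at 20.1 to 26.7 CPM per kb, overlapped PPCS above it and HIBCH, at 17.6 to 22.1 CPM per kb, below it. PANK4 (9.09 to 11.1 CPM per kb) and COASY (9.07 to 11.3 CPM per kb) could not be ordered. PPCDC (6.47 to 7.66 CPM per kb) overlapped PANK2 (5.62 to 6.53 CPM per kb) slightly. PANK1 was lowest, at 3.34 to 4.19 CPM per kb (percentile 33.3), below PANK2 in each library.

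The order depended on the length used. With the exons of all GENCODE transcripts, PANK3 (40.5 CPM per kb), PPCS (24.0 CPM per kb) and HIBADH (19.6 CPM per kb) kept the top of the order and PANK1 (3.51 CPM per kb) the bottom. HIBCH came out at 7.43 CPM per kb, against 19.0 CPM per kb with the basic set. COASY then lay above PANK4, and PANK2 above PPCDC.

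**Figure D3:**
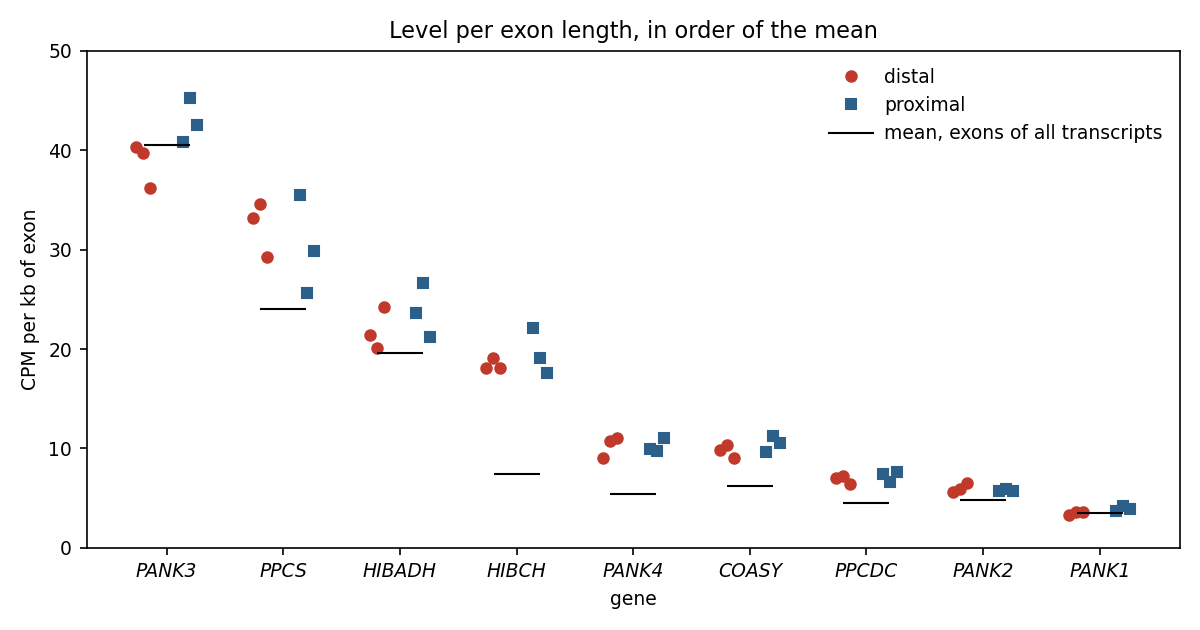
CPM per kb of exon for each member (vertical axis from 0), in order of the mean over 6 libraries, with distal libraries as circles and proximal libraries as squares. The horizontal bars give the mean with exons of all GENCODE transcripts. The bar lies well below the points for HIBCH, PANK4, COASY and PPCDC, and below them for PANK2 and PPCS. It is just below the points for HIBADH, and among them for PANK3 and PANK1.

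Of the summed level per kb of the 3 active kinase genes, PANK3 made up 81.8%, 80.7% and 78.1% in the distal libraries, against 81.1%, 81.7% and 81.5% in the proximal libraries. PANK2 made up 11.4%, 12.0% and 14.1% in distal and 11.4%, 10.7% and 10.9% in proximal tumour, and PANK1 6.79% to 7.85% over all 6 libraries. Distal 3, with the lowest PANK3 and the highest PANK2, stood apart from the other 5 libraries in this split. With the exons of all transcripts the share of PANK3 was 80.4% to 83.8%.

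Part of the reads over some members could be shared with other annotated genes, on the same strand under any counting, and on the opposite strand if strand was not used, which is not given in the sources used here. Of all 50-base stretches in their coding transcripts, none were found in transcripts of another gene for PANK4, PPCDC, COASY and HIBADH, and no member shared a stretch with another member. For PANK3, 15.4% were shared, mostly with the pseudogene SLC2A3P1, which overlaps PANK3 exons over 1451 bases on the same strand. For PANK1, 10.8% were shared, mostly with the transcript AL157400.5 that overlaps its exons on the same strand. Neither SLC2A3P1 nor AL157400.5 was in the count table. Exons of RNF24 on the opposite strand cover 9.77% of the PANK2 exon length over all transcripts. RNF24 itself had 373 to 481 counts per library. Of the 50-base stretches in PANK2 coding transcripts 0.76% were shared, searched on both strands, and none of these with RNF24. For PPCS the overlapping genes had few reads, at 69 to 111 counts for CCDC30 on the same strand and 3 to 17 counts for ZMYND12 on the opposite strand. Over the exons of all transcripts, AC067852.1 overlapped COASY on the same strand over 215 bases (5.33%). INPP1 overlapped HIBCH on the opposite strand over 202 bases (2.72%), and had 89 to 127 counts per library.

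Single libraries moved the members in different ways. The coefficient of variation over the 6 libraries was 5.56% in PANK2 to 12.0% in PPCS. Counting error alone would give 1.03% for PANK3, which varied by 7.38%, and 5.17% for PPCDC, which varied by 6.54%. Proximal 2 held the highest value of 4 members (PANK1, PANK3, COASY and HIBADH) but the lowest of PPCS, at 0.28 below its mean on the log2 scale. Distal 3 held the lowest value of PANK3, PPCDC and COASY and the highest of PANK2. Distal 1 and distal 2 held the highest value of no member.

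**Figure D4:**
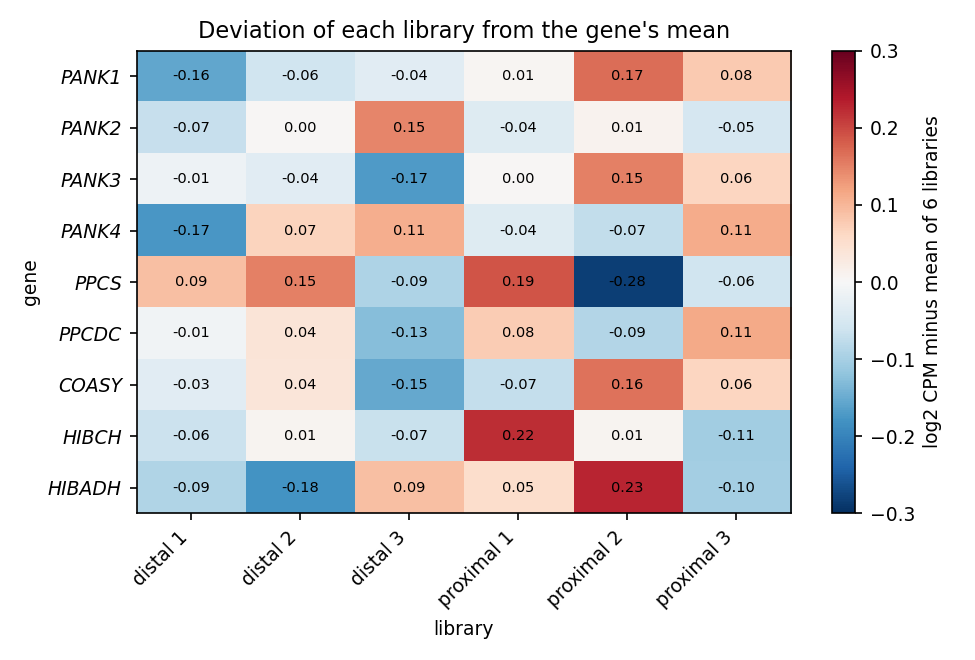
Deviation of each library from the gene's mean over the 6 libraries, on the log2 CPM scale (colour and number), with genes as rows and distal libraries to the left of proximal ones. Distal and proximal columns do not separate as blocks, and the deviations run from -0.28 (PPCS in proximal 2) to 0.23 (HIBADH in proximal 2).

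PANK3 exceeded its counting error most, and the genes whose log2 CPM ran most like it over the 6 libraries were ACAP2 (Pearson r = 0.994), MED1 (r = 0.988) and PFKP (r = 0.987), out of 10733 genes averaging at least 5 CPM. The points share their libraries and scaling, and with 6 libraries and so many genes high values of r are reached easily. PFKP had 80.6, 81.0 and 72.4 CPM in distal, against 82.8, 89.9 and 87.1 CPM in proximal tumour. As for PANK3, distal 3 was the lowest library and proximal 2 the highest in PFKP, ACAP2 and MED1. These genes were picked for their likeness to PANK3 over the same libraries, so the shared extremes are no separate result.

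Genes that supply, turn over or use coenzyme A were read from a list of 26, of which 23 were tested and VNN1, VNN2 and VNN3 were not analysed here. None of the 23 passed edgeR's test or had an unadjusted p under 0.05. Values were higher in distal for 6 and lower for 17, where 48.4% of all genes tested were below 0, and the list as a set was not tested. Log2 fold changes of the 23 had a median of -0.06, beside 0.0045 for all genes tested, and a range of -0.19 to 0.15. SLC5A6, the carrier that brings pantothenate into cells, had 70.9, 75.2 and 58.0 CPM in distal, against 68.9, 55.1 and 77.7 CPM in proximal tumour. Its log2 fold change of 0.018 (SE 0.14) lay well inside that spread, and it was -0.017 without distal 1, -0.063 without distal 2, 0.12 without distal 3, -0.11 without proximal 2 and 0.23 without distal 3 and proximal 3. The lowest p in this list were those of ACLY, which makes cytosolic acetyl-coenzyme A from citrate, at -0.17 (SE 0.094), and ACSS1, a mitochondrial acetate-activating enzyme, at -0.19 (SE 0.12). Without distal 3 and proximal 3 these values were -0.083 for ACLY and -0.11 for ACSS1. With single libraries left out ACSS1 ran from -0.30 without distal 2 (unadjusted p 0.0440 and adjusted p 0.9997 in edgeR's test) to -0.090 without distal 3, and ACLY from -0.25 without proximal 1 (unadjusted p 0.0237 and adjusted p 0.9999 in edgeR's test) to -0.13 without proximal 3. The groups did not overlap for 2 of the 23, CRAT (carnitine acetyltransferase) and DCAKD, named after their values were seen, both lower in distal, beside 6.28% of all genes tested.

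Among 26 genes of branched-chain amino acid breakdown, all tested, none passed edgeR's test. In that test 1 had an unadjusted p under 0.05, beside 178 of all 13382 genes tested. Values were higher in distal for 12 and lower for 14, where 48.4% of all genes tested were below 0. The median log2 fold change was -0.03. The groups did not overlap for 3 of the 26, with 2 lower in distal, beside 6.28% of all genes tested. The gene with an unadjusted p under 0.05 was PPM1K, the phosphatase that activates the branched-chain ketoacid dehydrogenase. It had 21.0, 26.0 and 17.6 CPM in distal and 25.1, 30.5 and 30.2 CPM in proximal tumour, so the groups overlapped between distal 2 and proximal 1. Its log2 fold change was -0.40 (SE 0.15), with an adjusted p of 0.9997 in edgeR's test and an unadjusted p of 0.0236. Without distal 3 and proximal 3 the value of PPM1K was -0.24. PCCB, a subunit of propionyl-coenzyme A carboxylase, had -0.15 (SE 0.086), and its groups did not overlap, with distal lower. BCAT1, the cytosolic branched-chain aminotransferase, named after its values were seen, had 49.8 CPM in distal 3 and 8.28 to 17.0 CPM in the other 5 libraries.

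The steps that border β-alanine did not pass either. ALDH6A1, the dehydrogenase shared by valine and β-alanine breakdown, had 8.24, 8.28 and 12.6 CPM in distal, against 7.93, 9.93 and 9.84 CPM in proximal tumour. Its log2 fold change of 0.07 (SE 0.21) was -0.16 without distal 3, 0.17 without distal 1, 0.17 without distal 2, -0.033 without proximal 1 and -0.11 without distal 3 and proximal 3. ABAT, which converts β-alanine to malonate semialdehyde, had 16.3, 20.4 and 19.7 CPM in distal and 21.3, 18.0 and 19.2 CPM in proximal tumour, or -0.056 (SE 0.14) on the log2 scale, turning to 0.034 without distal 1 and 0.0070 without proximal 1, and -0.10 without distal 3 and proximal 3. Of 21 genes of β-alanine supply and breakdown 15 were tested, 8 higher and 7 lower in distal, with a median of 0.02 and none called. UPB1, GAD2, GADL1, DPYD and CNDP1 did not pass the low-count filter, with 2, 5, 15, 19 and 40 counts over the 6 libraries. AGXT2 was not in the table. The smallest p belonged to SMS, spermine synthase, with 0.43 (SE 0.14), and to CARNS1, carnosine synthase, with -0.76 (SE 0.46) from 0.644 CPM in distal and 1.06 CPM in proximal tumour. SMS had an adjusted p of 0.9997 in edgeR's test and an unadjusted p of 0.0115, and its groups overlapped. SMS was the only 1 of the 15 with an unadjusted p under 0.05, beside 178 of all 13382 genes tested. CARNS1 was at -1.24 without distal 3 (unadjusted p 0.0264 and adjusted p 0.9987 in edgeR's test). It had only 112 counts over the 6 libraries together.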

How the data were processed

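RNA from 6 tumour samples was made into poly(A) libraries and sequenced on an Illumina instrument, per the labels' protocols. The deposited values are raw counts of reads by gene symbol. The submitters' processing notes name STAR 2.7.3a, featureCounts 2.0.1, Trimmomatic 0.39 and DESeq2, and the build GRCh38. Which annotation and strand setting were used, and what was done with reads of the host, is not given in the sources used here, so a count may include host reads.

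Counts were tested as deposited with edgeR 4.0.16 in R 4.3.3: the expression filter by group, TMM scaling, and its robust quasi-likelihood test, Benjamini-Hochberg adjusted over all genes, at 0.05, with the group and no covariate. Standard errors were derived from the size of the log2 fold change and F. CPM were computed here from the deposited counts. Alternatives were other scalings and filters, DESeq2 1.42.0, limma-voom (limma 3.58.1), the replicate number as a block, and libraries left out. Deviations by library used a prior count of 1. Counting error was taken as Poisson. The procedure was tested on simulated data.

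The members, gene lists, alternatives and naming rule were chosen with earlier results of these data known. The rule named all members, SLC5A6, ABAT, ALDH6A1, the 2 lowest p of each list where none passed, and the 3 genes most like the member that most exceeded its counting error. Positions came from RefSeq (GRCh38.p14) and exon lengths from GENCODE 29, which matched 98.6% of tested genes.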

Additional observations from a re-analysis of the deposited data

How the results depend on the processing

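The count of 0 called members held under all 15 alternatives. Over all genes, DESeq2 called 1 gene, EDIL3, leaving out single libraries gave 0 to 1, and the other alternatives gave 0 called genes, with 126 to 488 genes at an unadjusted p under 0.05. Log2 fold changes kept their sign for PANK1, PANK3, COASY and HIBADH under every alternative. PANK4 was at -0.0030 with no low-count filter and -0.0054 with limma-voom. With single libraries left out the ranges were -0.0059 to 0.098 for PANK2, -0.051 to 0.082 for PANK4, -0.017 to 0.22 for PPCS, -0.13 to -0.023 for PPCDC, -0.16 to 0.0021 for HIBCH, -0.11 to 0.13 for SLC5A6, -0.12 to 0.034 for ABAT and -0.16 to 0.17 for ALDH6A1. Without distal 3 and proximal 3, PANK2 was at -0.019, PPCDC at 0.016 and ALDH6A1 at -0.11. The cause of these turns was not tested. Other scalings moved the median of all genes by at most 0.014 on the log2 scale. CARNS1 had no value at a filter of 1 CPM in 3 libraries. With the replicate number as a block, 0 genes and 0 members were called. Deviations of same-numbered libraries from their group means correlated at 0.36, -0.11 and 0.18. Distal 1 and distal 3 ran most like the proximal library of their own number, but distal 2 ran most like proximal 1. Counts of 2 libraries were also compared by a chi-square per degree of freedom, which is lower where they are more alike. Distal 1 and proximal 1 were the most alike of all pairs, at 5.80, next to 8.06 for distal 1 and distal 2. Distal 2 and proximal 2 were at 22.5. The numbers were not taken to pair the samples, and a link between distal 1 and proximal 1 was not tested. With 3 libraries per group, differences inside the members' 95% intervals, 0.76 to 1.30 times the proximal level at the widest, could not be told from none.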
